A study of Homo sapiens with 8 samples.

Results

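The comparison was between A549 cells given indisulam and SPHINX31 together and A549 cells given neither compound. A549 is an established human lung adenocarcinoma line. 4 of the 8 libraries of the series entered it directly, 2 labelled untreated and 2 labelled with both compounds, and were chosen by the treatment and replicate number in their titles. The other 4 libraries, 2 from cells given indisulam alone and 2 from cells given SPHINX31 alone, shared the fit and served for direct comparisons with each single treatment. The study's methods give 0.5 μM indisulam and 5 μM SPHINX31 for 24 h. The protocol text deposited with every library, untreated ones included, names 2 μM indisulam and 18 h instead, which are the values that the methods give for another cell line of the study, Panc10.05. No genetic change is named for any group, and all libraries come from the same cell line. The study calls the replicates technical, so that p-values here measure only the spread between these libraries and not between independent treatments.

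Splicing removes introns from precursor RNA, and depends on small nuclear ribonucleoproteins and on helper proteins that mark exons. RBM39 is such a helper, which works with the U2AF proteins at the end of introns. Indisulam glues RBM39 to the ubiquitin ligase substrate receptor DCAF15, after which the RBM39 protein is degraded. SR proteins bind exons and carry stretches of serine and arginine, which the kinases SRPK1 and CLK1 phosphorylate. SPHINX31 is an inhibitor of SRPK1, and the study cites a report that CLK1 and SRSF2 are targets of it too. The gene counts analysed here report RNA levels, not protein levels, kinase activity or the inclusion of single exons.

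Gene counts summed to 63186989 and 60337535 for untreated cells and 55852384 and 56291535 for cells given both compounds, within a range of 51727369 to 63186989 over all libraries. Between 83.0% and 86.0% of recorded reads were assigned to a gene in each library. Reads on no annotated feature were 3.94% and 4.34% in the untreated and 5.87% and 4.87% in the combination libraries, and their part in the results below was not tested. The cells carried the epithelial markers, with 8 of 8 tested and summed levels of 9915 and 9987 CPM (counts scaled to library size) untreated and 8609 and 8519 CPM with the combination. The defining surfactant genes and NKX2-1 of alveolar type II cells were near 0, so that 4 of 9 markers were tested and ABCA3, a lipid transporter, made up nearly all of their sum. Of the leukocyte, fibroblast and endothelial markers 2 of 8, 4 of 8 and 1 of 6 passed the filter on low counts. PTPRC, which all leukocytes express, was at 0.0485 and 0 CPM untreated and at 0.035 and 0.0524 CPM with the combination.

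With the combination, RNA of the splicing machinery, of the hosts of small nucleolar RNAs, of ribosomal proteins and of chromosome 19 zinc finger genes was more often higher than lower relative to untreated cells. RNA for mitosis, kinetochores, DNA replication and repair, nuclear pores, protein folding in the endoplasmic reticulum, tRNA charging and adhesion was more often lower. Genes of sterol synthesis, p53 targets and targets of the aryl hydrocarbon receptor also leaned upward. The same table of 18661 tested genes, of 60624 listed, underlies all of these statements. In it 9337 genes (50%) had a Benjamini-Hochberg adjusted p-value under 0.05 by edgeR's quasi-likelihood test, 4434 (23.8%) higher and 4903 (26.3%) lower with the combination. At an unadjusted p under 0.05 there were 10428 genes. These shares are the background against which each gene list is read below.

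Most of these changes were small. The typical size of a change, taken as the median of its absolute log2 value, was 0.30, and 5% of genes lay below -1.14 and 5% above 0.99. Changes of at least 2-fold that passed the test were found in 795 genes higher (4.26%) and 1137 genes lower (6.09%). The numbers in each direction moved with the scaling. With total counts in place of TMM factors the median of all genes shifted by 0.053 on the log2 scale and the split became 5331 higher and 4304 lower. All fold changes below are on the TMM scale, combination relative to untreated unless another comparison is named, with CPM values in the order of replicate 1 and replicate 2. CPM are not corrected for gene length and are compared between libraries, never between genes.

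46 gene lists were read against this background. A list is described by the number of its tested members that passed the test in each direction and by its median log2 fold change, where the median of all tested genes was 0.00. The lists with the highest shares of higher members were snoRNA hosts (70.8%), the core spliceosome (65.6%) and SR proteins (64.7%), and those with the highest shares of lower members were mitosis (64.7%), nucleoporins (54.5%) and the unfolded protein response (51.9%). No enrichment test was made on the lists. Below, counts for indisulam or SPHINX31 alone against untreated cells stand beside those of the combination. The shares of all tested genes in these single-treatment comparisons are not given here, so those counts are not read against a background.

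**Figure D1:**
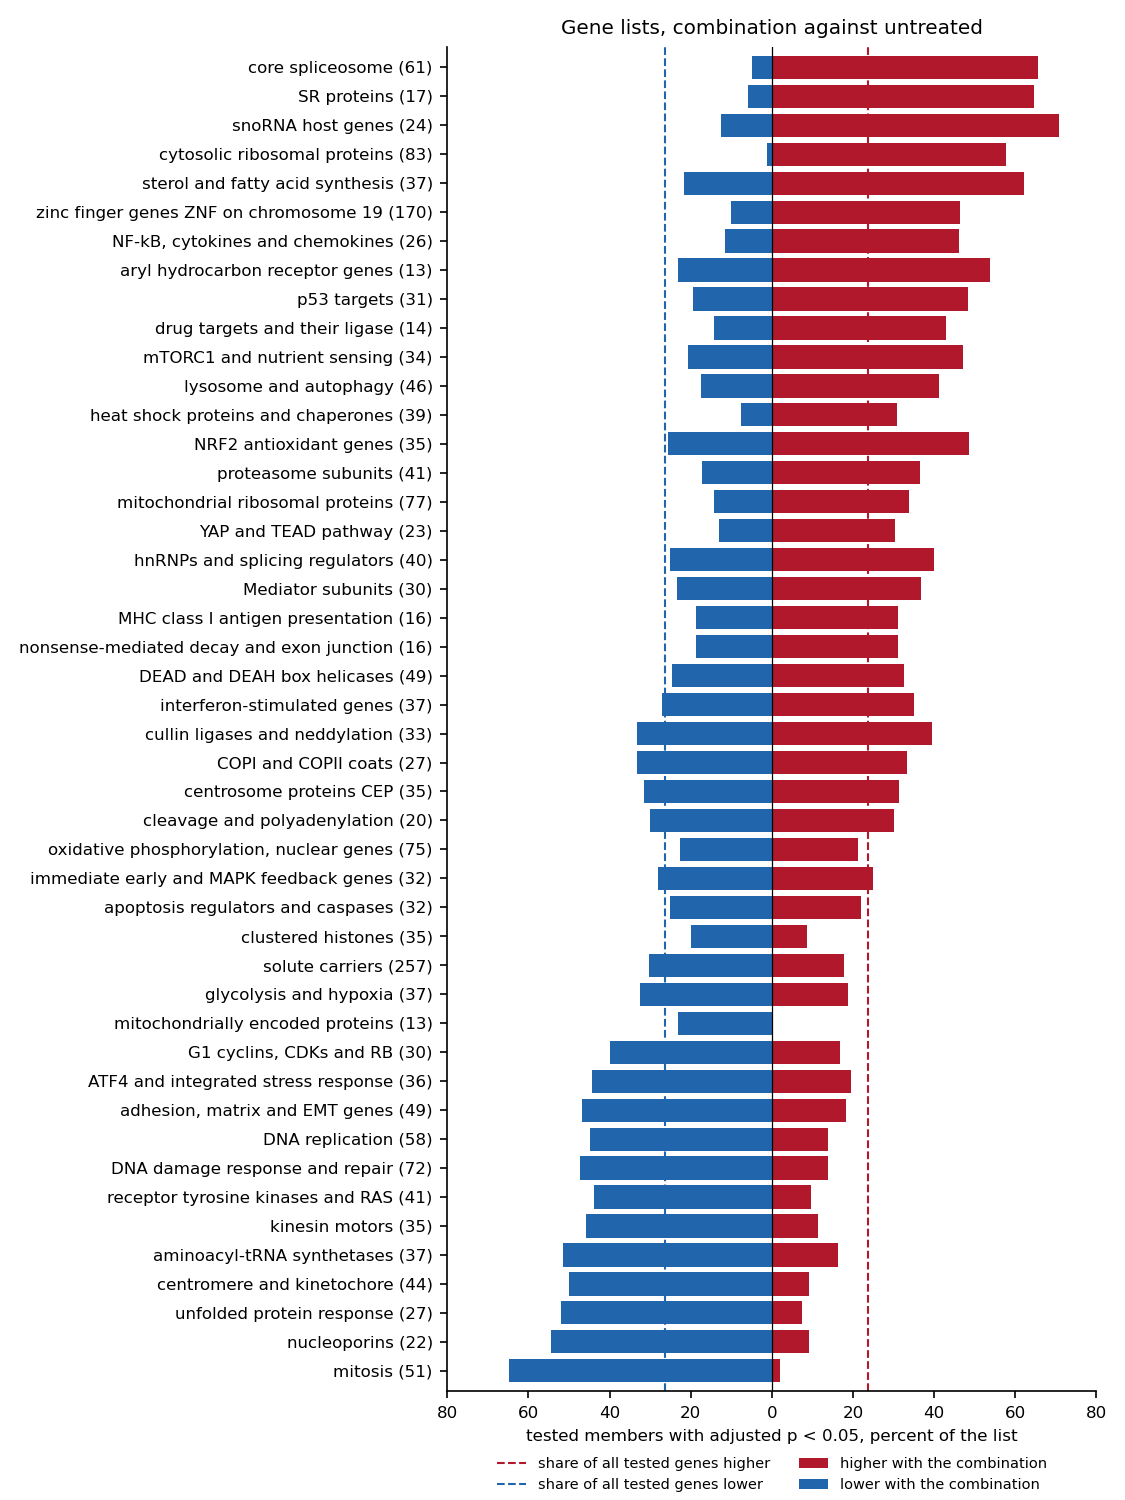
Bars give, for each of 46 gene lists, the percent of tested members with an adjusted p-value under 0.05 that were higher (red, to the right) or lower (blue, to the left) with the combination, and dashed lines mark the 23.8% and 26.3% of all tested genes. The number of tested members stands in parentheses, and the lists run from snoRNA hosts and the core spliceosome at one end to mitosis at the other.

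The transcripts of the drug targets themselves moved in opposite directions. RBM39 (ENSG00000131051, GRCh38 chromosome 20, 35701347 to 35742312, minus strand) was at 154 and 157 CPM untreated and at 373 and 391 CPM with the combination. Both treated libraries lay far above both untreated ones, by 1.30 on the log2 scale (SE 0.06, n = 2 per group, adjusted p = 1.4e-09 in edgeR's quasi-likelihood test). SRPK1 (ENSG00000096063, chromosome 6, 35832966 to 35921342, minus strand) was at 128 and 130 CPM untreated and at 110 and 109 CPM with the combination. Its groups did not overlap either, but the fall was 0.23 on the log2 scale (SE 0.06, adjusted p = 0.0032). DCAF15, the receptor that indisulam engages, was at 21.2 and 19.9 CPM untreated and at 21.4 and 19.9 CPM with the combination, with overlapping groups and an adjusted p of 0.96.

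The CLK kinases, which act on SR proteins inside the nucleus, did not move as 1 family. CLK4 was at 9.0 and 8.96 CPM untreated and at 22.2 and 21.9 CPM with the combination, a log2 fold change of 1.30 (adjusted p = 3e-08). Its levels more than doubled without overlap. CLK1 rose from 25.5 and 27.8 to 49.8 and 49.2 CPM (log2 fold change 0.89, adjusted p = 1.4e-06) and CLK3 from 33.7 and 33.9 to 55.8 and 53.3 CPM (0.69). CLK2 fell by 0.43 on the log2 scale, from 46.3 and 48.3 to 37.6 and 32.7 CPM. CLK1, CLK3 and DCAF15 fall outside the rule for named genes and are given for their role. Of the 14 tested members of the list of drug targets and their ligase, 6 were higher and 2 lower.

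**Figure D2:**
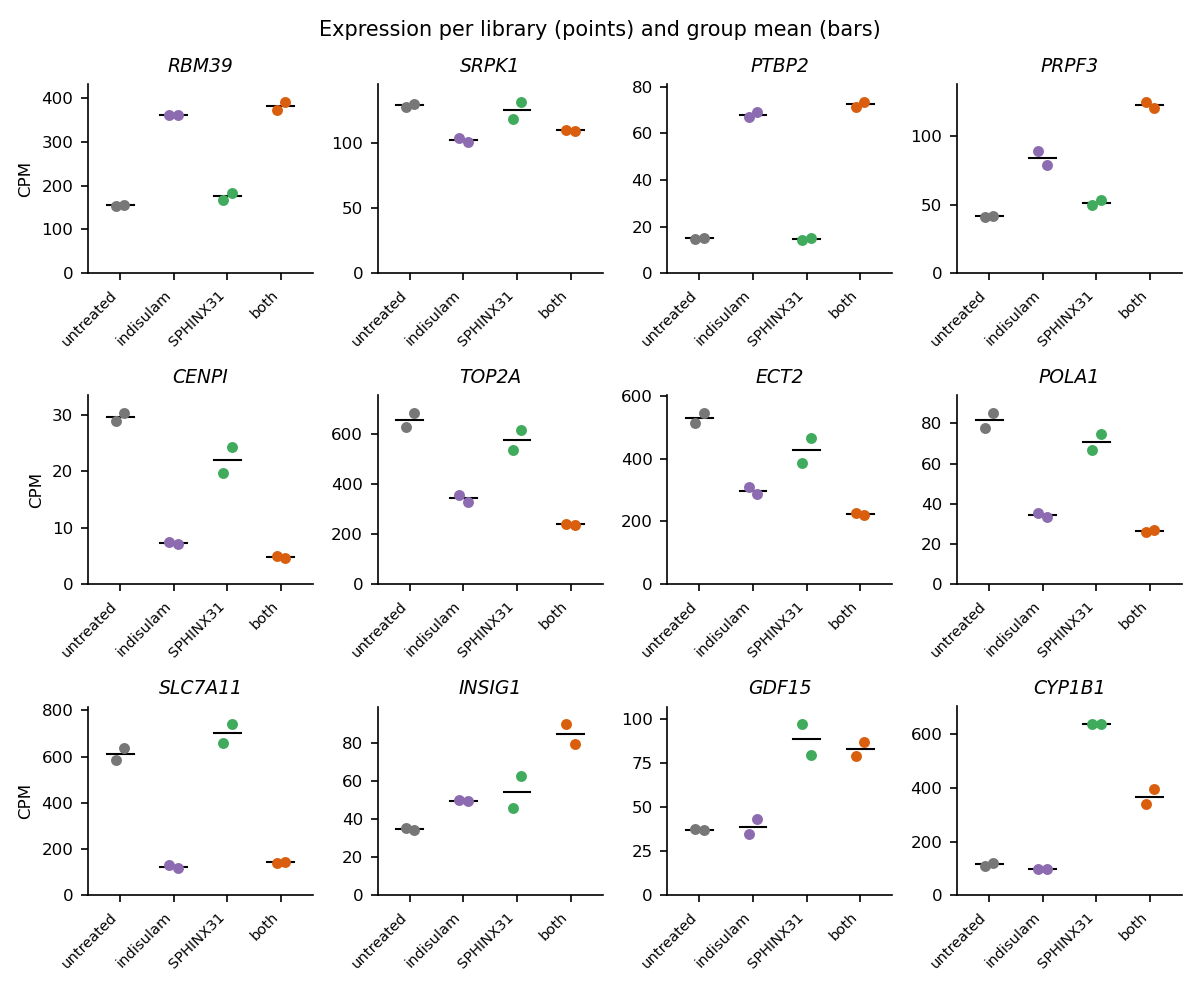
Points are CPM of single libraries, 2 per group, and bars are group means, for 12 genes in untreated cells and cells given indisulam, SPHINX31 or both, each panel with its own vertical axis from 0. RBM39, PTBP2 and SLC7A11 with both compounds lay near their levels with indisulam alone, while GDF15 and CYP1B1 were above the indisulam libraries and TOP2A and CENPI below them.

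Most parts of the splicing machinery had more RNA with the combination. Of 61 tested core spliceosome genes, 40 (65.6%) were higher and 3 (4.92%) lower, with a median log2 fold change of 0.20. Indisulam alone gave nearly the same, with 37 higher and 2 lower than untreated (median 0.19), and SPHINX31 alone 1 higher and 5 lower. Directly against indisulam, 5 core genes were higher and 2 lower with the combination, and under total counts 8 and 1. The shares of all tested genes in that comparison were 3.17% and 4.32%. Their summed level was 7159 and 7288 CPM untreated and 8753 and 8876 CPM with the combination, so that the groups were apart. PRPF3, a component of the U4/U6 particle (ENSG00000117360, chromosome 1, 150321479 to 150353233, plus strand), was the core member with the highest change. It was at 41 and 41.8 CPM untreated and at 125 and 120 CPM with the combination, about 3 times as high in each treated library (log2 fold change 1.56, SE 0.06, adjusted p = 1.1e-09). SF1, which recognises the branch point, rose from 262 and 262 to 471 and 466 CPM (0.84, adjusted p = 8.2e-09).

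U2AF2, the partner of RBM39 at the intron end, was at 265 and 255 CPM untreated and at 390 and 386 CPM with the combination, with a log2 fold change of 0.58 (adjusted p = 3.6e-07). SF3B1, the central protein of the U2 particle, moved less, from 323 and 330 to 380 and 402 CPM (0.26). Both fall outside the rule for named genes. EFTUD2, a GTPase of the U5 particle, went the other way, from 207 and 207 to 139 and 142 CPM, and SNRNP40 of the same particle from 42.4 and 41.5 to 34.3 and 35.3 CPM. The falls were 0.56 and 0.27 on the log2 scale. Without 1 library at a time, the number of higher core members was between 28 and 33.

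Of the 17 SR proteins and SR-related proteins, 11 were higher and 1 was lower (median 0.24). Against untreated cells, indisulam alone gave 12 higher and 1 lower, and SPHINX31 alone none higher and 2 lower. SRSF1, the prototype of the family, was at 74.8 and 76.0 CPM untreated and at 127 and 128 CPM with the combination, which is 0.76 on the log2 scale (SE 0.05, adjusted p = 7.2e-08). SRRM1, a large SR-related coactivator, rose from 89.8 and 87.9 to 146 and 143 CPM (0.70). SRSF6 was the lower member, at 109 and 108 CPM untreated and at 95.9 and 92.1 CPM with the combination. All 3 had groups that did not overlap.

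The proteins that repress or steer splice sites were more divided. Among 40 hnRNPs and other regulators, 16 were higher and 10 lower, a count of higher members that fell to 10 without untreated replicate 1 and to 11 without untreated replicate 2 or without combination replicate 2. PTBP2, the paralogue of the repressor PTBP1 that is known from neurons (ENSG00000117569, chromosome 1, 96721665 to 96823738, plus strand), had the highest fold change of all genes that met the rule for named genes. It was at 14.8 and 15.1 CPM untreated and at 71.3 and 73.6 CPM with the combination. The rise was 2.28 on the log2 scale (SE 0.06, adjusted p = 5.2e-11), with hardly any spread within a group. RBM25 rose from 122 and 134 to 190 and 188 CPM (0.56). ESRP1, which drives epithelial splice forms, fell from 17.4 and 18.6 to 9.90 and 10.6 CPM (-0.81, adjusted p = 1.9e-06), and RBM10 fell from 94.4 and 93.4 to 61.3 and 60.2 CPM (-0.63), with NDUFB11 opposite to it.

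RNA decay and 3′ end processing stayed close to the background. Of 16 genes of nonsense-mediated decay and the exon junction complex, 5 were higher and 3 lower. Leaving out untreated replicate 1 left 2 of these higher, and combination replicate 2 left 3. Among 20 cleavage and polyadenylation factors 6 were higher and 6 lower, with 2 higher without untreated replicate 1, 4 without untreated replicate 2 and 3 without combination replicate 2. PAPOLA, the poly(A) polymerase, was an exception in size, with 354 and 362 CPM untreated and 164 and 170 CPM with the combination (log2 fold change -1.10, adjusted p = 3.1e-09). CSTF2, of the complex that binds downstream of the cleavage site, fell from 71.2 and 70.4 to 36.3 and 37.2 CPM (-0.95).

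Host genes of small nucleolar RNAs, whose introns carry guide RNAs for ribosomal RNA modification, were higher in 17 of 24 cases and lower in 3, with a median of 0.43. Against untreated cells, indisulam alone gave 12 higher and 3 lower, and SPHINX31 alone 7 higher and 1 lower. SNHG1 was at 79.3 and 87.6 CPM untreated and at 173 and 183 CPM with the combination, or 1.09 on the log2 scale (SE 0.07, adjusted p = 4.7e-08). SNHG3 rose from 39.2 and 40.1 to 73.6 and 73.1 CPM (0.89), a value that is uncertain because RCC1 lies over it on the same strand. The lower hosts SNHG14 (-1.15) and SNHG4 (-0.93) lie opposite UBE3A and SIL1, and the strand setting of the counts is not given in the sources used here.

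Of 83 cytosolic ribosomal proteins, 48 were higher and 1 was lower, with a median of only 0.16. The count of higher members was 28 without untreated replicate 1 and 30 without untreated replicate 2. RPL22 rose from 101 and 95 to 136 and 143 CPM (log2 fold change 0.51, adjusted p = 5.8e-06), and its near copy RPL22L1 fell from 39.5 and 40.7 to 34.7 and 33.2 CPM (-0.24). Indisulam alone gave 39 cytosolic ribosomal proteins higher and 2 lower than untreated, and SPHINX31 alone none higher and 2 lower. Reads of ribosomal protein genes can be split with their processed copies. Mitochondrial ribosomal proteins were higher in 26 and lower in 11 of 77 cases, and without untreated replicate 1 higher in 17.

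Zinc finger genes on chromosome 19, mostly repressors with KRAB domains that stand in clusters, were higher in 79 (46.5%) and lower in 17 (10.0%) of 170 tested cases, with a median of 0.28. Indisulam alone gave 62 higher and 17 lower than untreated (median 0.24), and SPHINX31 alone 7 higher and none lower. ZNF557 was at 5.70 and 5.57 CPM untreated and at 16.9 and 15.6 CPM with the combination (log2 fold change 1.53, adjusted p = 3e-08). ZNF227 rose from 20.8 and 20.9 to 37.6 and 41.4 CPM (0.92), with ZNF235 opposite to it. Among the lower members ZNF551 and ZNF584 changed by -0.53 and -0.48. The members resemble each other in sequence, so that reads may be shared between them.

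Genes of cell division were often lower, and mitosis had the highest share of lower members of the 46 lists. Of 51 tested mitosis genes 33 (64.7%) were lower and 1 was higher, with a median of -0.30, against a background of 26.3% lower. Their summed level was 7604 and 7931 CPM in the untreated and 5516 and 5536 CPM in the combination libraries. NCAPH and TOP2A, which compact and untangle chromosomes, fell by more than 2-fold, while CDK1 and PLK1, the kinases that drive entry into mitosis, fell by less. In bulk RNA a lower share of dividing cells and less RNA per dividing cell cannot be told apart.

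TOP2A (ENSG00000131747, chromosome 17, 40388525 to 40417896, minus strand) was at 629 and 685 CPM untreated and at 239 and 238 CPM with the combination, or -1.46 on the log2 scale (SE 0.07, adjusted p = 2.6e-09). NCAPH, a condensin subunit, was at 59.0 and 61.4 CPM untreated and at 21.7 and 20.8 CPM with the combination (-1.50, adjusted p = 4.7e-09). ECT2, the exchange factor for cytokinesis (ENSG00000114346, chromosome 3, 172750682 to 172821474, plus strand), fell from 512 and 547 to 228 and 220 CPM (-1.24, adjusted p = 2.5e-08). In all 3 genes the treated libraries lay well below both untreated ones. CDK1 went from 146 and 150 to 120 and 126 CPM (-0.27, adjusted p = 0.0036), CCNB1 from 226 and 232 to 193 and 201 CPM (-0.22) and PLK1 from 209 and 208 to 163 and 169 CPM (-0.33). AURKA, at 136 and 139 CPM untreated and 128 and 131 CPM with the combination, did not pass the test (adjusted p = 0.17). CCNB2 was the higher member, at 156 and 160 against 174 and 179 CPM (0.16, adjusted p = 0.013), and it missed the threshold without untreated replicate 1 (0.11), without untreated replicate 2 (0.053) and without combination replicate 2 (0.074). ECT2, CDK1, CCNB1, PLK1 and AURKA fall outside the rule for named genes and are given for their roles.

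Many genes of the G2 and M phases carry a short promoter word, the cell cycle genes homology region, read here as TTTGAA or its reverse complement. The word stood in the window from 250 bases before to 50 bases after the RefSeq start in 26 of 40 mitosis genes with a promoter entry (65.0%) and in 10.2% of the promoters of all 12448 tested genes with an entry. Among the mitosis genes with an entry, 18 of the 27 that were lower and 8 of the 13 that were not lower had it. To show what such a promoter looks like, the 250 bases before the start are given for 2 of the lower genes, read 5′ to 3′ on the gene's own strand, with matches in capitals, from RefSeq on GRCh38.p14. The TOP2A stretch is chr17:40417897-40418146 on the minus strand, with matches that begin 194 and 151 bases before the start, and the ECT2 stretch is chr3:172750476-172750725 on the plus strand, with 1 match that begins 115 bases before the start. A match is a description of the letters and no evidence of binding.
TOP2A: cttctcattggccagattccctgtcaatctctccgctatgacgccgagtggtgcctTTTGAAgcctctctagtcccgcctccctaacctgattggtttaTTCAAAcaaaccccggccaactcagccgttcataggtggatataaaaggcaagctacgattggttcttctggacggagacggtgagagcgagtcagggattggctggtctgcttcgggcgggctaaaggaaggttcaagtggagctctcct
ECT2: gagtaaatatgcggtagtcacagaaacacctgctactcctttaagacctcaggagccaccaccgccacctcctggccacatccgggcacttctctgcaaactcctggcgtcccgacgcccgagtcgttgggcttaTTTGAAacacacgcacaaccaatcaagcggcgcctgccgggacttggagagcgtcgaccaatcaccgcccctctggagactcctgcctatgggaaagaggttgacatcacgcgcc

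Centromere and kinetochore genes, which build the attachment site of chromosomes to the spindle, were lower in 22 of 44 cases and higher in 4 (median -0.21), and 7 were at least 2-fold lower. CENPI (ENSG00000102384, chromosome X, 101098188 to 101166126, plus strand) had the largest fall of all genes that met the rule for named genes. It was at 29.0 and 30.4 CPM untreated and at 5.07 and 4.59 CPM with the combination, a 6.15-fold difference (log2 fold change -2.62, SE 0.10, adjusted p = 8e-10). CENPK, which belongs to the same inner kinetochore complex, fell from 36.1 and 40.0 to 9.20 and 8.96 CPM (-2.07, adjusted p = 8e-10). CENPA, the centromeric histone, fell by 0.31 on the log2 scale, from 37.5 and 39.1 to 29.8 and 32.0 CPM, and the overlapping gene SLC35F6 lies on the same strand. CENPC went up, from 14.4 and 14.4 to 18.4 and 18.6 CPM (0.36). The inner kinetochore was therefore not lowered as a block.

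Among 35 kinesin motors, 16 were lower and 4 higher. KIF2A, which takes apart microtubule ends, was at 110 and 121 CPM untreated and at 36.5 and 37.7 CPM with the combination (log2 fold change -1.64, adjusted p = 7.6e-10). KIF20B, needed at the end of cytokinesis, fell from 76.3 and 84.0 to 33.5 and 34.0 CPM (-1.25). CEP proteins of the centrosome showed no such lean, with 11 higher and 11 lower of 35.

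DNA replication genes were lower in 26 of 58 cases (44.8%) and higher in 8 (13.8%), with a median of -0.12. Within the list single genes differed in direction, and no parts of the list were counted separately. POLA1, the catalytic subunit of the polymerase that starts each strand, was at 77.9 and 85.3 CPM untreated and at 25.8 and 26.9 CPM with the combination (log2 fold change -1.63, SE 0.07, adjusted p = 1.6e-09). CDC45, part of the replicative helicase, fell from 30.7 and 33.0 to 14.7 and 14.1 CPM (-1.14) and POLE2 from 14.4 and 16.0 to 7.56 and 6.95 CPM (-1.07). RRM2, which makes deoxynucleotides, was at 202 and 205 CPM untreated and at 99.5 and 103 CPM with the combination (-1.01, adjusted p = 2.7e-08).

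Other replication genes were level or higher. ORC1, of the origin recognition complex, rose from 35.8 and 35.8 to 60.8 and 62.3 CPM (0.78, adjusted p = 8.5e-07). The licensing factor CDT1 rose from 52.9 and 50 to 73.9 and 80.1 CPM (0.58). PCNA, the sliding clamp, was at 278 and 288 CPM untreated and at 279 and 287 CPM with the combination (adjusted p = 0.98), and the helicase subunit MCM2 was at 173 and 175 against 176 and 179 CPM (adjusted p = 0.71). MCM6, of the same helicase, was at 115 and 115 against 123 and 125 CPM (adjusted p = 0.25). POLE2, RRM2, PCNA, MCM2 and MCM6 fall outside the rule for named genes.

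Replication genes are known targets of E2F factors, and 4 spellings of the E2F site (TTTCGCGC, TTTGGCGC, TTTCCCGC and TTTGCCGC, on both strands) were looked for in the same 300-base windows. A spelling was present in 21 of 50 replication genes with an entry (42.0%) and in 5.0% of the promoters of tested genes. It was present in 9 of 22 lower members and in 12 of 28 members that were not lower, among them 2 of 7 higher members. 2 promoters with a spelling are printed, that of POLA1, which fell, and that of MCM6, which did not pass the test. The POLA1 stretch is chrX:24693668-24693917 on the plus strand, with a match that begins 137 bases before the start. The MCM6 stretch is chr2:135876444-135876693 on the minus strand, with 4 matches that begin 152, 148, 90 and 86 bases before the start and overlap in pairs, TTTGGCGC on the printed strand with TTTCGCGC on the other.
POLA1: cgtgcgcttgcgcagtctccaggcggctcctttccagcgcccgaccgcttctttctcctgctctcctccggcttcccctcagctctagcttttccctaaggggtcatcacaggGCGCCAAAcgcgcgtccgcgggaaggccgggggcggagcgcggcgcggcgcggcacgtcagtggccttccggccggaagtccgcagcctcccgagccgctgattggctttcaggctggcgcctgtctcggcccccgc
MCM6: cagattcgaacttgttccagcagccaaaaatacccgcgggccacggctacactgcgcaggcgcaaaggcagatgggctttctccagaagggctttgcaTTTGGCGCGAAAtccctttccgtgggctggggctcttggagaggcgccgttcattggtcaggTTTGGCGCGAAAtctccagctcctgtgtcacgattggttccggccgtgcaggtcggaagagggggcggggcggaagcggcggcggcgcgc

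Repair genes went the same way as replication genes. Of 72 genes of the DNA damage response, 34 were lower and 10 higher (median -0.14). FANCI, of the pathway for DNA crosslinks, was at 209 and 214 CPM untreated and at 87.6 and 83.4 CPM with the combination (log2 fold change -1.31, adjusted p = 1.1e-08). POLG lies opposite to FANCI and VRK2 opposite to FANCL. FANCL fell from 26.8 and 27.1 to 15.2 and 13.0 CPM (-0.93) and BRCA1, outside the rule, from 91.4 and 101 to 64.0 and 63.6 CPM (-0.59). RAD51D was among the higher members, with 17.7 and 18.2 against 28.2 and 27.8 CPM (0.64). Of 30 G1 cyclins, CDK and RB family genes 12 were lower and 5 higher, with RBL1, a relative of RB1, falling from 30.6 and 35.3 to 12 and 12.6 CPM (-1.42, adjusted p = 3.7e-07). Clustered histones were lower in 7 and higher in 3 of 35 tested cases, below the background share, and fewer were lower whichever library was left out. Only 35 of 67 listed histone genes passed the filter on low counts. The list summed to 92.5 and 91.4 CPM untreated and to 81.3 and 81.4 CPM with the combination. The libraries were made from polyadenylated RNA, so that histone RNA without a poly(A) tail would be missed.

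The combination differed from indisulam alone in relatively few genes, and mitosis genes were often among the lower ones. Directly compared with the indisulam libraries, 1399 genes (7.5%) passed the test, 592 (3.17%) higher and 807 (4.32%) lower. The split depended on the scaling, with 942 higher and 498 lower under total counts. Of the 51 mitosis genes, 40 were lower than with indisulam alone and none was higher. The count was 27 without indisulam replicate 1, 31 without indisulam replicate 2, 19 without combination replicate 1 and 21 without combination replicate 2, and 33 under total counts. This comparison and that with untreated cells share the combination libraries, so the counts are given side by side and not as independent results.

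The summed mitosis level was 6990 and 6800 CPM with indisulam, 6459 and 7095 CPM with SPHINX31 and 5516 and 5536 CPM with both. Against untreated cells, indisulam alone gave 12 mitosis genes higher and 16 lower, SPHINX31 alone 1 higher and 18 lower, and the combination 1 higher and 33 lower. For TOP2A the levels were 355 and 330 CPM with indisulam and 534 and 613 CPM with SPHINX31, and the combination was lower than indisulam by 0.52 on the log2 scale (SE 0.07, adjusted p = 5.3e-04). CDK1 was at 163 and 160 CPM with indisulam and at 114 and 133 CPM with SPHINX31, and the combination lay below the former by 0.40 (adjusted p = 0.0028). RRM2, at 160 and 161 CPM with indisulam and 167 and 192 CPM with SPHINX31, had a log2 difference to indisulam of -0.66 (adjusted p = 9.3e-05). CCNB2, at 204 and 209 CPM with indisulam, was -0.23 below it (adjusted p = 0.0092). In these genes both combination libraries lay below both indisulam libraries.

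The other division lists leaned the same way in the direct comparison, but their counts rested more on single libraries. Of 44 centromere genes 19 were lower than with indisulam, 7 without indisulam replicate 1, 4 without combination replicate 1 and 5 without combination replicate 2. Of 58 replication genes 11 were lower, 7 without indisulam replicate 1 and 4 without either combination replicate. Of 35 kinesins 12 were lower, 5 without indisulam replicate 1 or combination replicate 2 and 4 without combination replicate 1. CENPI was at 7.41 and 7.16 CPM with indisulam, above the 5.07 and 4.59 CPM with both compounds (log2 difference -0.59, adjusted p = 0.0073).

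**Figure D3:**
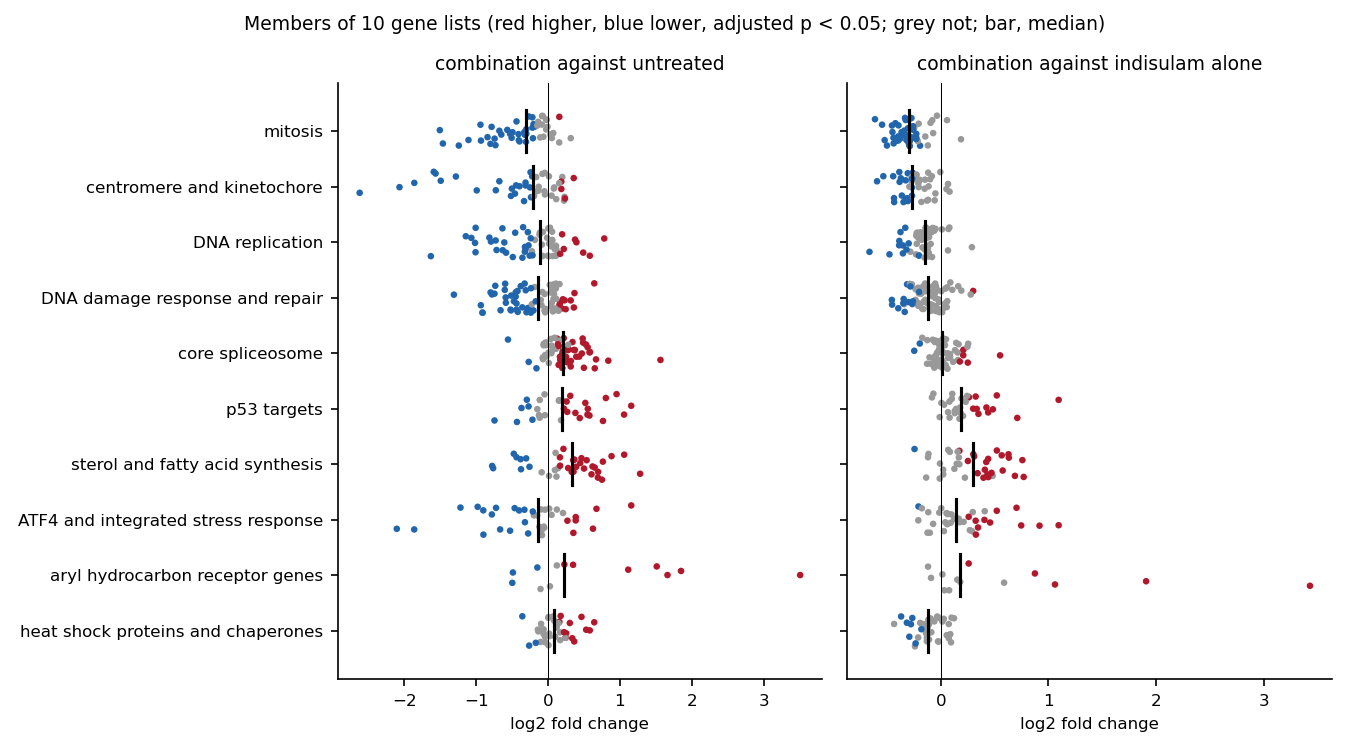
Points are the tested members of 10 gene lists by log2 fold change, on the left for combination against untreated and on the right for combination against indisulam alone, in red or blue where higher or lower at an adjusted p-value under 0.05 and in grey otherwise, and black bars are medians. Of the mitosis genes 33 were lower on the left and 40 on the right, whereas of the sterol genes 23 were higher on the left and 20 on the right.

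p53 target genes were more often higher than the background. Of 31 members 15 (48.4%) were higher and 6 lower, with a median of 0.20 and a summed level of 1395 and 1413 CPM untreated and 1713 and 1787 CPM with the combination. GDF15 and SESN2 are members of the list of the integrated stress response as well, so the lists are not separate. GDF15, a secreted stress factor (ENSG00000130513, chromosome 19, 18374731 to 18389176, plus strand), was at 37.5 and 37.0 CPM untreated and at 79.1 and 87.1 CPM with the combination (log2 fold change 1.16, SE 0.10, adjusted p = 8.1e-07). CCNG1, a cyclin induced by p53, doubled from 141 and 141 to 291 and 296 CPM (1.06, adjusted p = 2.9e-09). CDKN1A, the inhibitor p21, rose from 55.3 and 56.0 to 78.6 and 84.2 CPM (0.55) and MDM2, which degrades p53 and falls outside the rule, from 138 and 144 to 168 and 181 CPM (0.31). XPC, a repair gene of the list, fell from 58.0 and 62.8 to 37.3 and 34.8 CPM (-0.74).

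GDF15 was at 34.8 and 43.2 CPM with indisulam alone and at 97.6 and 79.6 CPM with SPHINX31 alone. The combination was thus above indisulam (log2 difference 1.1, adjusted p = 9.7e-05) and overlapped SPHINX31 (-0.09, adjusted p = 0.46). 11 of the 31 p53 targets were higher than with indisulam alone and none was lower, against 3.17% of all genes. That count was 8 without indisulam replicate 1, 9 without indisulam replicate 2 or combination replicate 1 and 7 without combination replicate 2, and 17 under total counts. For CDKN1A the difference to indisulam was 0.44 (adjusted p = 0.001). Against untreated cells the list had 8 higher and 12 lower with indisulam and 10 higher and 1 lower with SPHINX31.

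Regulators of apoptosis went both ways, with 7 of 32 higher and 8 lower, and the count of lower genes was 5 without either untreated replicate and 4 without combination replicate 1. Under total counts 4 were lower and 8 higher. BAX, which opens the outer mitochondrial membrane, was at 58.5 and 57.4 CPM untreated and at 99.6 and 97.3 CPM with the combination (log2 fold change 0.76, adjusted p = 1e-07). CASP2 rose from 62.3 and 66.4 to 96.7 and 103 CPM (0.63). BMF, a BH3-only killer protein, had low levels of 0.324 and 0.47 CPM untreated and 2.55 and 2.38 CPM with the combination (2.63, SE 0.21, adjusted p = 3.9e-07). BBC3, another BH3-only gene, rose from 15.5 and 14.4 to 19 and 21.6 CPM (0.44, adjusted p = 0.0034), with an adjusted p of 0.053 without combination replicate 2. BAD, a BH3-only gene as well, fell from 24.5 and 21.6 to 18.8 and 17.6 CPM (-0.34, adjusted p = 0.028 in edgeR's quasi-likelihood test), with GPR137 opposite to it. The survival gene BCL2L1 fell from 159 and 150 to 125 and 129 CPM (-0.29) and XIAP from 105 and 111 to 79.0 and 82.1 CPM (-0.42). BMF, BBC3 and BCL2L1 are given for their role.

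Genes of the integrated stress response, through which ATF4 raises amino acid synthesis and uptake, were more often lower than higher with the combination. Of 36 members 16 were lower and 7 higher (median -0.13). GDF15 and SESN2, which also stand among the p53 targets, are counted here again. SLC7A11, the cystine transporter (ENSG00000151012, chromosome 4, 138164097 to 138242349, minus strand), was at 587 and 636 CPM untreated and at 139 and 146 CPM with the combination (log2 fold change -2.10, SE 0.07, adjusted p = 3.4e-10). ALDH1L2, a mitochondrial folate enzyme, fell from 74.1 and 84.1 to 20.6 and 23 CPM (-1.86), with WASHC4 on the opposite strand. ATF3, a stress-induced transcription factor, rose from 20.3 and 19.3 to 28.9 and 34.3 CPM (0.67). ATF4 itself was at 505 and 494 CPM untreated and at 488 and 523 CPM with the combination, with overlapping groups (adjusted p = 0.81).

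The single treatments moved this list in opposite directions against untreated cells, with 1 higher and 24 lower under indisulam and 15 higher and none lower under SPHINX31. DDIT3, the stress factor also called CHOP, was at 25.2 and 24.2 CPM with indisulam, at 86.1 and 74.1 CPM with SPHINX31 and at 40.7 and 52.7 CPM with both, where untreated cells had 38.7 and 42.1 CPM. Both combination libraries lay between the single treatments, above indisulam (log2 difference 0.92, adjusted p = 2.7e-04) and below SPHINX31 (-0.78, adjusted p = 3e-05). Against untreated cells DDIT3 did not pass the test (0.21, adjusted p = 0.11), but passed it when combination replicate 1 was left out (0.39, adjusted p = 0.0064), and MARS1 and MBD6 lie opposite to it. TRIB3, which restrains this response, was at 343 and 323 CPM untreated, at 178 and 208 CPM with indisulam and at 552 and 485 CPM with SPHINX31. With both compounds it was at 226 and 305 CPM, 2 libraries far apart, and its fall from untreated (-0.33, adjusted p = 0.025) was lost without combination replicate 1 (adjusted p = 0.35) and without untreated replicate 1 (adjusted p = 0.11). SLC7A11 differed from this order, at 129 and 116 CPM with indisulam and at 660 and 742 CPM with SPHINX31, and the combination did not pass the test against indisulam (0.21, adjusted p = 0.08). 11 of the 36 members were higher than with indisulam alone and 1 lower. Without indisulam replicate 1 the count of higher members was 7, and without combination replicate 2 it was 4. ATF4, DDIT3 and TRIB3 fall outside the rule.

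The unfolded protein response of the endoplasmic reticulum had 14 of 27 members lower (51.9%) and 2 higher, with a median of -0.22. EDEM1, which sends misfolded glycoproteins to degradation, was at 103 and 102 CPM untreated and at 45.6 and 44.8 CPM with the combination (log2 fold change -1.18, adjusted p = 1.2e-09). HYOU1, a chaperone, fell from 241 and 234 to 128 and 127 CPM (-0.90) and HSPA5, the main chaperone of the compartment and outside the rule, from 696 and 674 to 449 and 472 CPM (-0.57). With indisulam alone 13 members were lower, and with SPHINX31 alone none was.

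Aminoacyl-tRNA synthetases, which charge tRNAs, were lower in 19 of 37 cases and higher in 6. EPRS1 was at 458 and 479 CPM untreated and at 192 and 221 CPM with the combination (log2 fold change -1.18, adjusted p = 1e-08). EARS2, at 78.2 and 77.7 against 108 and 110 CPM (0.48), was among the higher members and overlaps GGA2 and UBFD1.

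Heat shock proteins and chaperones were more often higher than lower. Of 39 members 12 were higher (30.8%, against 23.8% of all tested genes) and 3 lower (7.69%, against 26.3%). HSPA8, the constitutive HSP70, was at 1109 and 1053 CPM untreated and at 1679 and 1554 CPM with the combination (log2 fold change 0.58, adjusted p = 1.6e-05). With indisulam it was at 1766 and 1753 CPM and with SPHINX31 at 619 and 742 CPM, so that the single treatments lay on either side of the untreated libraries. Over the list, indisulam gave 23 higher and 3 lower, and SPHINX31 1 higher and 16 lower. Directly against indisulam, none was higher with the combination and 7 were lower, or 2 under total counts. HSPB8, a small heat shock protein, rose from 22.2 and 21.9 to 35.8 and 33.1 CPM (0.64). The inducible HSPA1A overlapped between groups, with 29.0 and 26.8 CPM untreated and 32.8 and 25.8 CPM with the combination (adjusted p = 0.57), and passed without combination replicate 2 (0.23, adjusted p = 0.038).

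Genes for making cholesterol and fatty acids, many of them targets of the SREBP factors, were higher in 23 of 37 cases (62.2%) and lower in 8, with a median of 0.33. INSIG1, which holds SREBP in the endoplasmic reticulum and is itself a target (ENSG00000186480, chromosome 7, 155297776 to 155310235, plus strand), was at 35.4 and 34.4 CPM untreated and at 90.2 and 79.3 CPM with the combination (log2 fold change 1.28, SE 0.11, adjusted p = 5.8e-07). HMGCS1, an early enzyme of the pathway, rose from 55.1 and 54.6 to 120 and 109 CPM (1.06, adjusted p = 1.7e-06). SQLE, a later enzyme of the pathway, rose from 67.7 and 66.5 to 120 and 108 CPM (0.76) and FASN, the fatty acid synthase, from 318 and 306 to 420 and 385 CPM (0.37). Not every member followed. The factor SREBF2 fell from 168 and 157 to 122 and 117 CPM (-0.44) and ACACA, the first enzyme of fatty acid synthesis, from 180 and 197 to 114 and 108 CPM (-0.76). SQLE, FASN and SREBF2 fall outside the rule.

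The sterol list went in different directions under the single treatments, with 8 higher and 11 lower under indisulam and 23 higher and none lower under SPHINX31. Its summed level was 5675 and 5456 CPM untreated, 5110 and 5245 CPM with indisulam, 6969 and 7256 CPM with SPHINX31 and 6262 and 6072 CPM with both. In the direct comparison 20 of 37 members were higher with the combination than with indisulam and 1 was lower, and the count of higher members was 12 without combination replicate 1. INSIG1 was at 49.9 and 49.5 CPM with indisulam and at 45.9 and 62.7 CPM with SPHINX31. Both combination libraries lay above all libraries of the single treatments, with log2 differences of 0.77 (adjusted p = 9.6e-04) and 0.64 (adjusted p = 2.3e-04). HMGCS1 had the same order, with 78.1 and 76.3 CPM for indisulam and 63.7 and 86.0 CPM for SPHINX31.

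Genes of the aryl hydrocarbon receptor, a sensor of planar aromatic compounds, were higher in 7 and lower in 3 of the 13 tested cases, of 14 listed. The low targets CYP1A1 and AHRR are among the 7, and their untreated libraries held few reads. CYP1B1, a monooxygenase and classical target (ENSG00000138061, chromosome 2, 38066973 to 38109902, minus strand, with RMDN2 and CYP1B1-AS1 opposite to it), was at 110 and 121 CPM untreated and at 339 and 395 CPM with the combination (log2 fold change 1.66, SE 0.07, adjusted p = 1.1e-09). TIPARP, a feedback inhibitor of the receptor, rose from 17.0 and 16.6 to 34.2 and 38.6 CPM (1.12, adjusted p = 5.6e-08). CYP1A1, the best known target, was low at 0.227 and 0.0839 CPM untreated and at 1.57 and 2.03 CPM with the combination, which is 14 and 5 against 90 and 116 reads (3.51, SE 0.33, adjusted p = 1.3e-06). AHRR rested on 7 and 4 against 20 and 18 reads (1.85, adjusted p = 0.0027). UGT1A6 rose from 4.72 and 4.21 to 12.9 and 12.6 CPM (1.51), but shares exons with other UGT1A genes on its strand. The receptor AHR, at 68.7 and 65.7 against 59.7 and 65.3 CPM, did not pass the test (adjusted p = 0.16), its partner ARNT fell (-0.50), and ALDH3A1 fell from 6751 and 6222 to 4641 and 4605 CPM (-0.49). CYP1A1, AHRR, UGT1A6 and AHR fall outside the rule.

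The response of these targets was larger with SPHINX31 alone. CYP1B1 was at 98.1 and 97.4 CPM with indisulam and at 639 and 636 CPM with SPHINX31, so that the combination lay between the single treatments, above indisulam by 1.91 (adjusted p = 8.1e-09) and below SPHINX31 by 0.80 on the log2 scale (adjusted p = 5.4e-07). TIPARP was at 17.0 and 17.9 CPM with indisulam and at 51.1 and 55.2 CPM with SPHINX31, and the combination differed from SPHINX31 by -0.55 (adjusted p = 2.5e-05). CYP1A1 was at 0.172 and 0.157 CPM with indisulam and at 7.29 and 5.74 CPM with SPHINX31 (combination relative to SPHINX31 -1.85, adjusted p = 2e-06). AHRR and UGT1A6 did not follow this order, since AHRR was at 0.129 and 0.188 CPM and UGT1A6 at 6.18 and 6.75 CPM with SPHINX31, below both combination libraries.

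The core of the response element of this receptor, GCGTG or its reverse complement, was present in 7 of 9 promoters of the list with an entry and in 49.1% of the promoters of tested genes, a word too common to set the list apart. TIPARP is shown as the printed example for the targets that rose. Its stretch is chr3:156674340-156674589 on the plus strand, with matches that begin 208 and 142 bases before the start.
TIPARP: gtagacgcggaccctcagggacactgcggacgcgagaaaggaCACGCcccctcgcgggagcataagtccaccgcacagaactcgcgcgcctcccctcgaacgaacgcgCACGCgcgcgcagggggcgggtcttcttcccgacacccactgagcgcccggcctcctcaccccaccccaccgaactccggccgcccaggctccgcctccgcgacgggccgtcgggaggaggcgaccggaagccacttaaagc

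NRF2 target genes, which protect from oxidants and which A549 cells are known to express highly, were higher in 17 of 35 cases and lower in 9. NFE2L2, the gene of NRF2, rose from 129 and 132 to 172 and 188 CPM (log2 fold change 0.46), outside the rule and with HNRNPA3 and AGPS opposite to it. TKT of the pentose phosphate pathway rose from 2169 and 2126 to 2956 and 3026 CPM (0.48) and GCLM of glutathione synthesis from 240 and 247 to 337 and 362 CPM (0.52). Of the 9 lower members 3 fell by at least 2-fold. The export pump ABCC3 was one of them, at 847 and 858 CPM untreated and at 254 and 230 CPM with the combination (-1.82, adjusted p = 4.7e-10). SLC7A11 had the largest fall of the list (-2.10), and ALDH3A1 fell as well (-0.49). The antioxidant element, read as TGACNNNGC on both strands, stood in 6 of 24 promoters of the list (25%) and in 15% of those of tested genes.

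Of 32 immediate early genes, 8 were higher and 9 lower than in untreated cells, which became 11 higher and 7 lower under total counts, and the count of lower genes was 6 without untreated replicate 1 and 5 without combination replicate 1. DUSP1, a phosphatase that ends MAP kinase signals, rose from 83.9 and 81.1 to 124 and 130 CPM (log2 fold change 0.62, adjusted p = 1.9e-06). DUSP6, its counterpart for ERK, fell from 43.0 and 42.5 to 29.4 and 35.0 CPM (-0.41). Against indisulam alone 9 of 32 were higher and none lower, with 5 without indisulam replicate 1 and 5 without combination replicate 2.

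Receptors and adhesion molecules at the cell surface were often lower. Of 41 receptor tyrosine kinase and RAS pathway genes 18 were lower and 4 higher, with AXL at 43.9 and 42.9 CPM untreated and at 24 and 23.3 CPM with the combination (log2 fold change -0.87, adjusted p = 5.4e-08). Of 49 adhesion and matrix genes 23 were lower and 9 higher. ITGA2, a collagen receptor chain, fell from 54.4 and 56.0 to 15.5 and 15.5 CPM (-1.83, adjusted p = 1.1e-09) and ITGB6 from 12.3 and 13.3 to 4.71 and 4.11 CPM (-1.54). Among 257 solute carriers 78 were lower and 46 higher, a lean that vanished under total counts with 67 lower and 68 higher. SLC12A2, the sodium, potassium and chloride cotransporter, fell from 438 and 443 to 168 and 170 CPM (-1.38, adjusted p = 4.9e-10) and was given for its level, outside the rule.

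Nucleoporins were lower in 12 of 22 cases and higher in 2, with the lowest median of any list at -0.38. Against untreated cells, indisulam alone gave 12 lower and 3 higher, and SPHINX31 alone none in either direction. NUP88 was at 78.8 and 79.4 CPM untreated and at 33.2 and 31.9 CPM with the combination (log2 fold change -1.28, adjusted p = 2.5e-09), and RABEP1 and RPAIN lie opposite to it. NUP62CL fell from 26.0 and 26.1 to 10.8 and 12.1 CPM (-1.18). NUP107, of the scaffold of the pore, rose from 148 and 155 to 187 and 199 CPM (0.35).

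In nutrient sensing, 16 of 34 genes were higher and 7 lower. RRAGB, a GTPase that brings mTORC1 to lysosomes, was at 8.53 and 8.42 CPM untreated and at 35.2 and 35.5 CPM with the combination (log2 fold change 2.06, SE 0.07, adjusted p = 3e-10). FNIP1, of the complex that acts on these GTPases, rose from 20.1 and 20.4 to 43.2 and 42.2 CPM (1.07). MTOR itself fell from 70.0 and 77.5 to 33.6 and 33.4 CPM (-1.14, adjusted p = 1.1e-08). Lysosome and autophagy genes were higher in 19 and lower in 8 of 46 cases, with the autophagy enzyme ATG7 at 24.1 and 24.1 against 9.83 and 10.7 CPM (-1.23). VGLL4 lies opposite to ATG7.

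Genes of energy metabolism had no direction that held under the alternatives. Of 75 nuclear genes of oxidative phosphorylation 16 were higher and 17 lower, with 11 lower without untreated replicate 1 and with 15 lower and 22 higher under total counts. NDUFS1 of complex I fell from 124 and 126 to 59.1 and 63.9 CPM (log2 fold change -1.02, adjusted p = 6.7e-09). Of 13 mitochondrially encoded proteins none was higher and 3 were lower (median -0.21), which became 0 without untreated replicate 1 or combination replicate 2, 7 without untreated replicate 2 and 8 without combination replicate 1. Glycolysis and hypoxia genes were lower in 12 and higher in 7 of 37 cases, and the lean reversed under total counts (7 lower, 8 higher), without untreated replicate 1 (5 and 7) and without combination replicate 2 (6 and 7). Within them HIF1A, the oxygen-regulated factor, fell from 654 and 690 to 389 and 428 CPM (-0.72, adjusted p = 3.8e-07).

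Of 26 tested NF-kB, cytokine and chemokine genes, of 34 listed, 12 (46.2%) were higher and 3 (11.5%) lower. IL18, a cytokine of the interleukin 1 family, rose from 85.6 and 88.6 to 119 and 119 CPM (log2 fold change 0.45, adjusted p = 1.3e-05), and LIF, a cytokine of the interleukin 6 family, from 92.1 and 97.8 to 146 and 120 CPM (0.48). Among the lower members CXCL5, a chemokine for neutrophils, was at 807 and 840 CPM untreated and 499 and 526 CPM with the combination (log2 fold change -0.68, adjusted p = 1.3e-06). Of 37 interferon-stimulated genes 13 were higher and 10 lower, with 7 higher without untreated replicate 2 and 8 without any other library. EIF2AK2, the sensor PKR, rose from 110 and 112 to 167 and 175 CPM (0.62). GPATCH11 lies opposite to EIF2AK2. Antigen presentation by class I had 5 of 16 higher and 3 lower, and 1 higher without untreated replicate 1 and 2 without untreated replicate 2.

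The remaining lists had members in both directions. Counts of higher and lower members were 15 and 7 of 41 proteasome subunits, 13 and 11 of 33 cullin ligase genes, 9 and 9 of 27 vesicle coat genes, 7 and 3 of 23 YAP and TEAD pathway genes, 11 and 7 of 30 Mediator subunits and 16 and 12 of 49 DEAD and DEAH box helicases. Without untreated replicate 1 the coat genes had 5 higher, the YAP and TEAD genes 4 and the Mediator subunits 8, and without untreated replicate 2 there were 6, 3 and 7. Without combination replicate 2, 5 YAP and TEAD genes were higher. MED12, the part of Mediator that docks its kinase module, fell from 46.1 and 50.7 to 20.6 and 19 CPM (log2 fold change -1.29) and the helicase DHX33 from 70.7 and 75.7 to 27.3 and 27.2 CPM (-1.43; C1QBP overlaps it), whereas DHX9 rose from 337 and 353 to 500 and 517 CPM (0.56).

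Among the 10 genes with the largest rise and the 10 with the largest fall by the rule for named genes, several belonged to none of these lists. CEACAM1, an adhesion receptor, was at 7.60 and 8.15 CPM untreated and at 27.1 and 23.4 CPM with the combination (log2 fold change 1.68, adjusted p = 2.6e-08). SEC31B, which is a member of the list of vesicle coat genes, rose from 12.4 and 13.2 to 45.9 and 32.9 CPM (1.62). AMH, the anti-Müllerian hormone, rose from 6.49 and 6.09 to 22.3 and 15.4 CPM (1.58). These last genes had spread-out treated libraries, yet no overlap. ZNG1B rose by 1.42 on the log2 scale and has near-identical copies.

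At the lower end MYO1C, an unconventional myosin, was at 242 and 240 CPM untreated and at 57.2 and 58.0 CPM with the combination (log2 fold change -2.06, adjusted p = 5.2e-11). R3HDM2 fell from 47.0 and 47.6 to 10.6 and 10.3 CPM (-2.18) and the palmitoyltransferase ZDHHC2 from 50.1 and 50.2 to 11.1 and 11.6 CPM (-2.14). TXNIP, which binds thioredoxin and responds to glucose, fell from 12.8 and 15.2 to 2.52 and 3.83 CPM (-2.14) and the adhesion molecule CADM2 from 13.9 and 13.9 to 3.08 and 3.55 CPM (-2.07). DHFR2 (-2.29), opposite to NSUN3, and DMAC2L (-2.22), opposite to CDKL1, have antisense partners.

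Compared with SPHINX31 alone, the combination differed as widely as from untreated cells. 9314 genes (49.9%) passed the test, 4364 (23.4%) higher and 4950 (26.5%) lower, and under total counts 4676 and 4733. Of the leading genes, PTBP2 was at 14.3 and 15.2 CPM with SPHINX31, PRPF3 at 49.4 and 53.3 CPM and SLC7A11 at 660 and 742 CPM, each on the side of the untreated libraries. PTBP2 was at 67.0 and 69.0 CPM with indisulam, near the 71.3 and 73.6 CPM with both (log2 difference 0.09, adjusted p = 0.36), whereas PRPF3, at 88.6 and 78.5 CPM with indisulam, was higher with both compounds (0.55, adjusted p = 2.5e-04). RBM39 did not pass the test against indisulam (0.08, adjusted p = 0.41). Few genes differed from indisulam by 2-fold or more, 56 higher (0.3%) and 10 lower (0.0536%). Against SPHINX31 the shares were 4.24% higher and 5.8% lower.

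The share of lower genes rose with the number of exons. Exons were counted on the canonical transcript of each tested protein-coding gene in GENCODE release 44. Of 326 genes with 1 exon, 31.3% were higher and 12.9% lower, and of 1238 genes with 25 or more exons 13.7% were higher and 46.3% lower. The bins between them followed in order for lower genes, from 18.4% at 2 to 4 exons over 24.2%, 30.4% and 36.5%. The median gene had 12 exons among lower genes and 8 among higher genes and those that did not pass the test. Genes with more exons also had higher counts, with a median average log2 CPM of 2.22 at 1 exon and 5.21 at 25 or more. In genes that reached an average log2 CPM of 3 the share of lower genes went from 13.1% to 50.9%. Of the 2803 genes with the shortest transcripts 25% were lower and of the 2801 with the longest 33.1%, and by intron bases, over sets of 2802 genes, the lowest and highest sets had 20.5% and 33.0%. The genes are not independent and no test was made. TOP2A with 35 exons, POLA1 with 37 and MTOR with 58 are examples on the lower side.

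**Figure D4:**
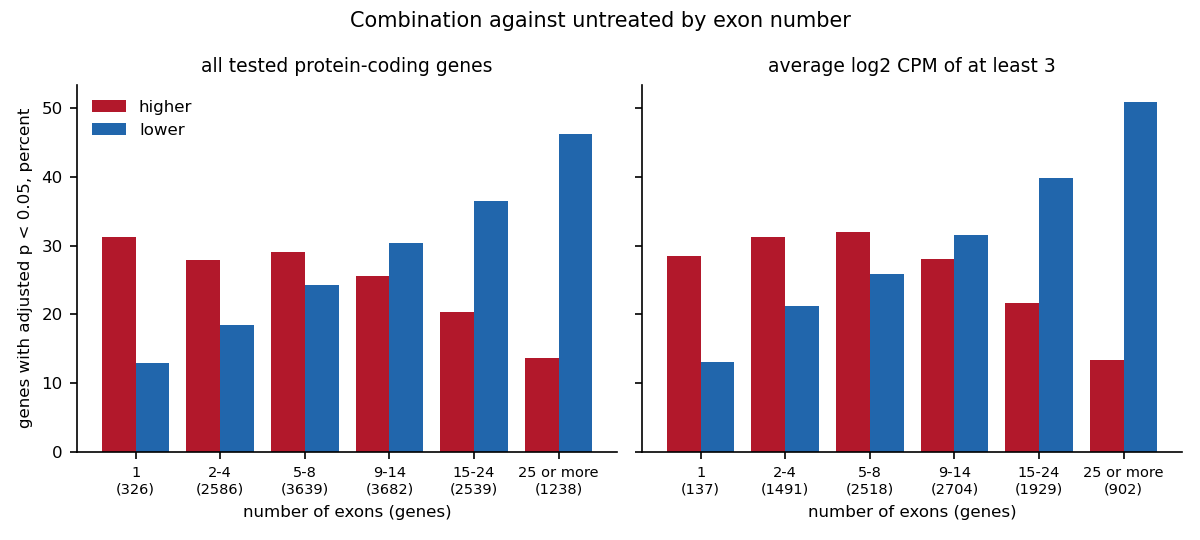
Bars give the percent of tested protein-coding genes that were higher (red) or lower (blue) with the combination at an adjusted p-value under 0.05, by number of exons, with gene numbers in parentheses, for all genes on the left and for genes that reached an average log2 CPM of 3 on the right. The blue bars rise from 12.9% to 46.3% on the left and from 13.1% to 50.9% on the right, while the red bars fall to 13.7% and 13.4%.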

How the data were processed

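Polyadenylated RNA from A549 cells was made into stranded libraries by the authors, and the deposited values are raw counts of reads per Ensembl gene, 1 file per library. The submitters' processing notes name HISAT2 2.2.1, HTSeq and GRCh38, and the annotation release and strand setting of the counts are not given in the sources used here. Entries that name no gene (reads without a feature, ambiguous or not uniquely aligned) stayed out of library sizes and tests, and 83.0% to 86.0% of recorded reads were on genes.

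The treatment given in the labels defined 4 groups of 2 libraries. Genes were filtered with filterByExpr, scaled with TMM (factors 0.978 to 1.02) and tested with edgeR 4.0.16 (glmQLFit and glmQLFTest, R 4.3.3) in 1 model of the 8 libraries (4 residual degrees of freedom, biological coefficient of variation 0.0491). Benjamini-Hochberg adjustment covered the 18661 genes tested, and the threshold was 0.05. Depth was 51727369 to 63186989 counts on genes, so that counting error was small for all but the lowest genes named. Within a group, counts differed by more than sampling noise (chi-square per degree of freedom 6.02 untreated and 7.28 with the combination), so no library was taken as a copy of another.

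Gene positions, exons and overlaps came from GENCODE release 44 on GRCh38 (99.7% of tested genes), and promoters from RefSeq on GRCh38.p14. The named genes are RBM39 and SRPK1, the 10 genes up and 10 down with the largest change among those past the threshold that reached an average log2 CPM of 3, with a symbol and 1 direction in both replicates, and up to 2 up and 2 down from each list by the same criteria. Genes outside this rule are marked, and some genes that meet it are not reported here. The members and lists were chosen with earlier results of these data known. The procedure was also run on simulated counts in which few genes changed, evenly in both directions. In the comparison with untreated cells 50% of genes passed the test, so the simulation does not bear on the choice of scaling. Alternatives were RLE and total-count scaling, DESeq2 1.42.0, other filters, only the libraries compared, a test against a 1.2-fold change, a threshold of 0.01, a replicate block, a GC offset over 50 bins and leaving out each library. Python 3.11.15 with pandas 2.3.3, numpy 2.4.6 and matplotlib 3.10.9 served for summaries and plots. Junction and exon counts were not analysed here.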

Additional observations from a re-analysis of the deposited data

Results flagged for a closer look

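Reads that fell on no annotated feature, which entered no comparison, were 5.87% and 4.87% of recorded reads in the combination libraries, above the 3.94% and 4.34% of the untreated libraries. With indisulam alone they were 5.48% and 4.49% and with SPHINX31 alone 3.67% and 3.93%. On all 23 of the chromosomes 1 to 22 and X both combination libraries had a higher share of such reads than both untreated libraries. All chromosomes were read from the same libraries, so they are not independent observations. Reads without a unique alignment were 5.66% and 5.67% with the combination, above 5.48% and 5.41% in untreated cells. Indisulam libraries had 5.53% and 5.81% of these and SPHINX31 libraries 5.50% and 5.24%. Neither class of reads carries a gene name, and what they consist of was not tested.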

How the results depend on the processing

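Each group had 2 technical replicates and each count of called genes rests on a spread shared by all groups. The combination against untreated gave 9337 genes, and between 7209 and 7635 when 1 library was left out, 9365 with RLE factors, 9635 with total counts, 7680 with DESeq2, 9575 with every gene of at least 1 count, 8032 with a mean count of at least 50, 9789 with only the libraries compared, 6884 at a threshold of 0.01 and 10152 with a GC offset. Tested against a fold change of 1.2 it gave 5047 genes, 2112 higher and 2935 lower. Against indisulam the 1399 genes became 125 in that test, 540 at a threshold of 0.01 and 2329 with the GC offset, and ranged from 440 (without combination replicate 2) to 1050 (without indisulam replicate 2), with 609 without combination replicate 1 and 696 without indisulam replicate 1. Against SPHINX31 the 9314 genes became 4770 in the test against 1.2-fold.

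For 221 genes, the 183 that the rule names and others given for their role, the values under the alternatives were compared with those reported, and 3201 of 3314 kept their side of the threshold, 108 missed it and 5 newly passed it, and 0 values of genes past the threshold changed direction. Of the list counts against untreated, 597 of 690 stayed within 1.5 times, 86 moved further and 7 turned to the other direction, where only lists with one direction at least 1.5 times the other were counted as turning. These were nonsense-mediated decay against 1.2-fold (0 higher, 1 lower), histones at a mean count of at least 50 (2 lower, 4 higher), glycolysis and hypoxia with total counts (7 lower, 8 higher), without untreated replicate 1 (5 and 7) and without combination replicate 2 (6 and 7; left-out counts of lower members ran from 5 to 14), solute carriers with total counts (67 lower, 68 higher) and Mediator against 1.2-fold (2 higher, 3 lower). Against indisulam 4 of 330 list counts turned, which were G1 genes at a threshold of 0.01 and without combination replicate 2 (0 lower, 1 higher in each), oxidative phosphorylation without indisulam replicate 2 (1 lower, 3 higher) and adhesion genes against 1.2-fold (0 lower, 1 higher). Among near-even lists, 8 had more members in the other direction under some alternative (44 counts), with total counts for apoptosis (4 lower, 8 higher), oxidative phosphorylation (15 and 22) and immediate early genes (7 and 11). The causes were not tested.

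Replicate numbers are shared between groups, but nothing in the labels makes them pairs. The deviations of same-numbered untreated and combination libraries from their group means had a correlation of 0.167 over 9946 genes, with 2 pairs only. A replicate block gave 9077 genes (4288 higher, 4789 lower), 1169 against indisulam and 9074 against SPHINX31, and with the GC offset 9968, 2048 and 9996. The share of lower genes with at least 25 exons, an alternative chosen after seeing the data, was 46.3%, and 42.2% with total counts, 48.0% with the GC offset and 30.5% against 1.2-fold.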
